A study of Mus musculus with 6 samples.

Results

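The fatty acid desaturases and elongases are enzymes of the endoplasmic reticulum that set how long and how unsaturated a cell's fatty acids are. The 10 genes described here are Scd1, Scd2, Fads1, Fads2, Fads3, Elovl1, Elovl3, Elovl4, Elovl5 and Elovl6, out of 18193 genes that the array platform named. All 10 were measured, by 25 probe sets annotated to 1 gene symbol alone, and each gene is shown by its brightest set over the 6 arrays. RNA came from the mammary gland of virgin FVB/N females aged 4 months, 3 wild type (WT) and 3 caveolin-3 knockouts (Cav-3KO), with no treatment in either group. Caveolin-3 is the coat protein of muscle caveolae, and the study's title places its loss in the context of lactation. The labels do not describe the knockout allele or say that the glands are from separate mice, so p-values measure the spread between these samples, which may be technical. In bulk tissue, fewer cells of a type and less RNA per cell cannot be told apart.

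Stearoyl-CoA desaturases (Scd) turn saturated fatty acids into monounsaturated ones such as oleate, which are favoured for storage as triglyceride. The Fads enzymes act on polyunsaturated fatty acids: FADS2 and FADS1 work in turn, with elongation between them, to make arachidonic acid and other highly unsaturated fatty acids of membranes from dietary precursors. The Elovl proteins catalyse the condensation that starts each round of chain elongation and differ in the chains they prefer. In the mammary gland fat is handled by adipocytes in the stroma and by the secretory epithelium, which makes milk lipid in lactation. Many of these genes are known targets of the sterol regulator SREBP-1, of the liver X receptors and of PPAR proteins.

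Values are log2 expression values per probe set, and all differences are Cav-3KO minus WT. The 6 array medians lay between 5.77 and 5.80, and correlations over all probe sets were 0.990 to 0.995 within a genotype and 0.977 to 0.987 between genotypes. The probe set of Cav3 read 4.79, 5.02 and 4.74 in WT 1 to 3 and 4.76, 4.83 and 4.72 in Cav-3KO 1 to 3, a difference of −0.08 (95% interval −0.32 to 0.16) with overlapping groups. It therefore gives no check of the labelled genotypes, and its position relative to the deletion is not known here. The number of arrays, 3 a group, limits the precision.

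Of the 10 genes 6 lie on chromosome 19 in the RefSeq table of assembly GRCm38.p6: Scd1, Scd2, the 3 Fads genes and Elovl3. Fads3, Fads2 and Fads1 are consecutive protein-coding genes there, and Scd4 is the only protein-coding gene between Scd2 and Scd1. Promoter windows of 300 bases (250 before and 50 after an annotated start) were given in RefSeq for 6 of the 10 genes, Fads2, Fads3, Elovl1, Elovl4, Elovl5 and Elovl6. Those of Fads2 (GRCm38.p6, chr19:10101454-10101753, minus strand) and Fads3 (chr19:10041298-10041597, plus strand) are shown because only Fads2 of these neighbours passed the test described below. That of Elovl6 (chr3:129532136-129532435, plus strand) is shown because it had the lowest difference among the genes with a window. Capitals mark GC boxes (GGGCGG) and NF-Y boxes (CCAAT) on either strand, none of which overlap.
Fads2: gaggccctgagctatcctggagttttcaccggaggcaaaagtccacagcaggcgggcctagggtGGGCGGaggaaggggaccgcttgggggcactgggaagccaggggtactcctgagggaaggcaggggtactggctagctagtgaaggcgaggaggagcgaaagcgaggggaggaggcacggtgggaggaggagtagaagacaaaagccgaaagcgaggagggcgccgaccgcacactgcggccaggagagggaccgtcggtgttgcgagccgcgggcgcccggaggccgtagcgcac
Fads3: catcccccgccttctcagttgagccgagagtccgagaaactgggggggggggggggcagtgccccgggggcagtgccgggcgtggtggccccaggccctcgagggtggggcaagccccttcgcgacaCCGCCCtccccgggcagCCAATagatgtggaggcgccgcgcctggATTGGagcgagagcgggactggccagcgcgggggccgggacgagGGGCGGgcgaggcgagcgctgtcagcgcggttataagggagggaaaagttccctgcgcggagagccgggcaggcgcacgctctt
Elovl6: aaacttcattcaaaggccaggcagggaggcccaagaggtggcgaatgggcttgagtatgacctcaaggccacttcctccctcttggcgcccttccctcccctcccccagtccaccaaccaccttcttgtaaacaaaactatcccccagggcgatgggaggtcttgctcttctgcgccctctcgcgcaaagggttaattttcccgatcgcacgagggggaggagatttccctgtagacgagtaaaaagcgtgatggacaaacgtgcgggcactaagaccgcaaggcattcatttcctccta
The Fads2 window held 1 GC box and the Fads3 window 2 GC boxes and 2 NF-Y boxes, while the Elovl6 window held neither. Among 32851 promoter windows, 35.7% held a GC box and 37.4% an NF-Y box. The sterol response element searched as TCACNCCAC, found in 1.24% of all windows, and the liver X receptor element, searched as a direct repeat of AGGNCA with 4 bases between and found in 0.253%, were not in any of the 7 windows of these genes. The PPAR element, searched as the same repeat with 1 base between and found in 0.381% of all windows, was in 1 of the 2 Elovl1 windows (chr4:118429451-118429750). The E-box CACGTG, in 7.15% of all windows, was in those of Elovl4 and Elovl5. Such matches describe letters in these windows and nothing beyond.

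The question of the comparison was which transcripts of the resting gland differ when caveolin-3 is missing. In Cav-3KO glands Elovl3 fell, with a measured 10.7-fold difference that is a lower bound because the Cav-3KO values were not shown to be above background. Scd2 fell 1.96-fold and Fads2 rose 3.02-fold. The other 7 genes did not pass the test (limma with Benjamini-Hochberg adjustment over all 45037 probe sets, threshold 0.05). Thus 1 of 10 genes was higher and 2 were lower, against 7.65% of all genes higher and 8.51% lower (16.2% in either direction). The median difference of the 10 genes was −0.23, against −0.01 for all genes, and the median size of a difference was 0.61, against 0.17. In 7 of the 10 genes the 3 Cav-3KO arrays all lay on one side of the 3 WT arrays, as they did in 38.3% of all genes. At an unadjusted p under 0.05 by limma there were 7 of the 10 genes, against 33.6% of all genes. Two-sided exact permutation tests over samples cannot go below 0.1 with 3 against 3, which was the value for each of these 7 genes.

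**Figure D1:**
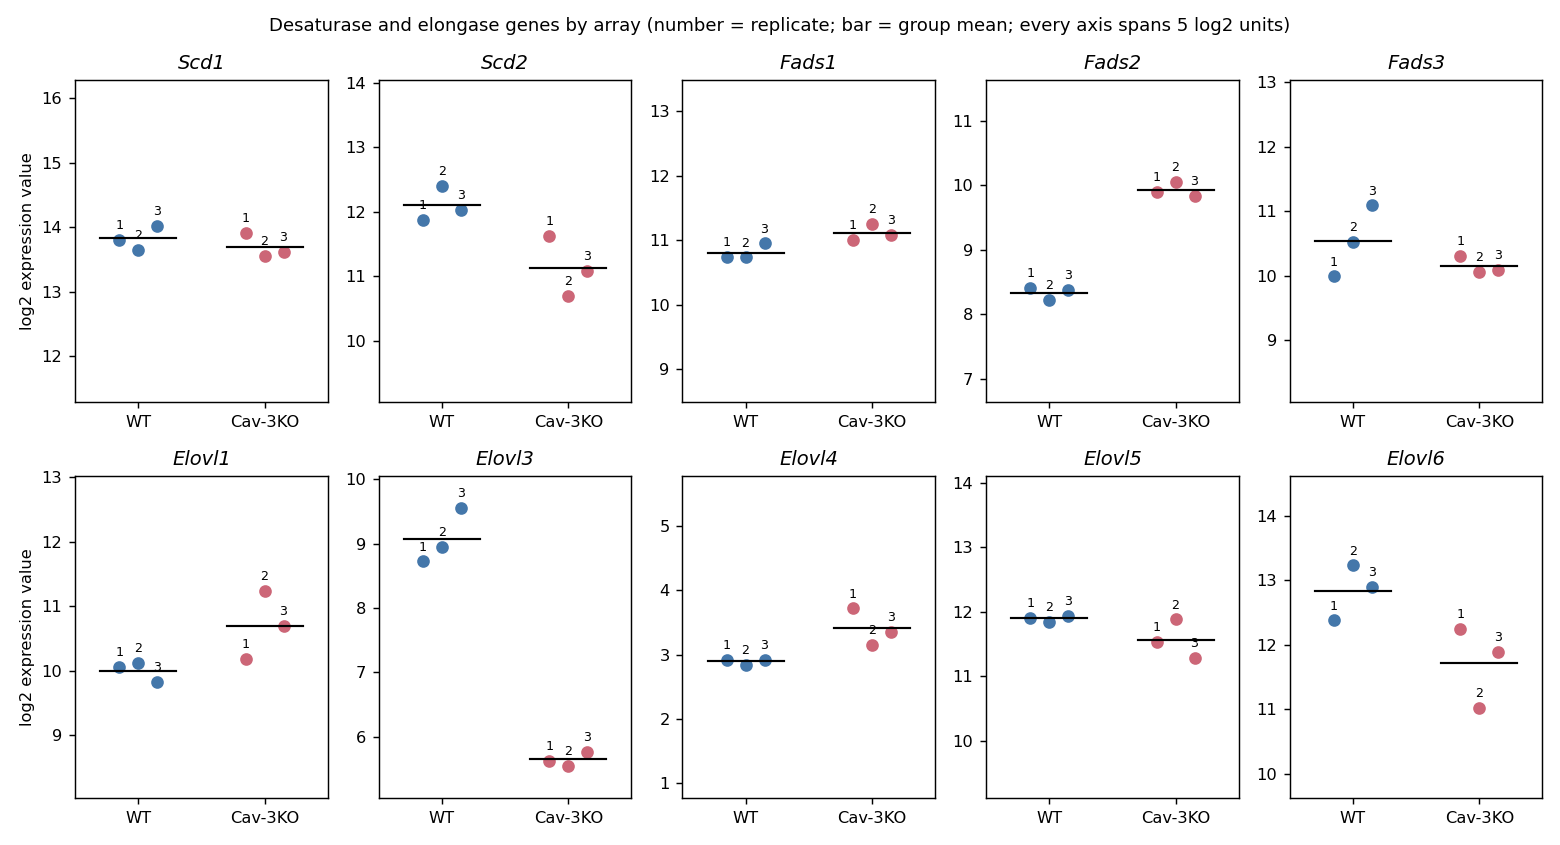
Log2 expression value (y axis) of the 10 genes in the 3 WT (blue) and 3 Cav-3KO (red) arrays, with the replicate number over each point and a bar at the group mean. Every y axis spans the same number of log2 units, so that the wide gaps of Elovl3 and Fads2 and the overlapping groups of Scd1, Fads3 and Elovl5 can be compared by eye.

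**Figure D2:**
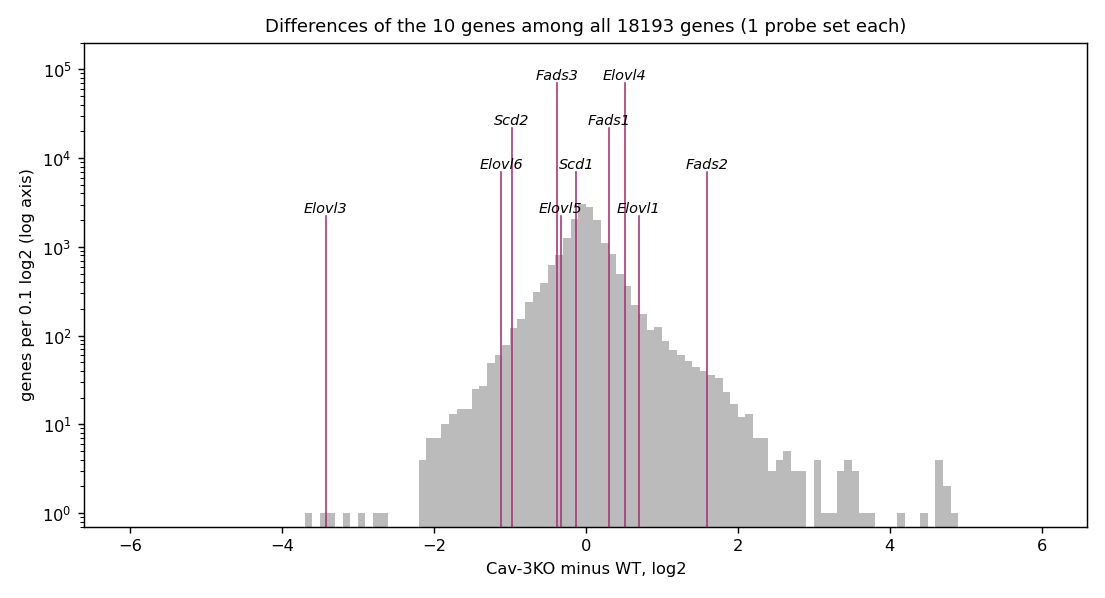
Number of genes (log axis) by Cav-3KO minus WT difference (log2), with the 10 genes marked by lines. Elovl3 stands at −3.42, beyond nearly all genes, Fads2 lies at 1.59 in the upper tail, and Scd1 lies near the centre.

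Among the desaturases of saturated fatty acids, Scd2 passed the test and Scd1 did not. Scd2, the isoform that predominates in brain and in early life, read 11.88, 12.40 and 12.03 in WT 1 to 3 and 11.63, 10.70 and 11.08 in Cav-3KO 1 to 3. The groups did not overlap, but Cav-3KO 1 lay only a little below WT 1, and Cav-3KO 2 was the lowest array. Scd2 fell by 0.97 ± 0.24 (SE), from 12.10 ± 0.27 (SD, n = 3) to 11.13 ± 0.47, with adjusted p = 0.0355 by limma. Both further probe sets of Scd2 fell as well, by 1.25 ± 0.28 and 0.91 ± 0.16 (adjusted p = 0.0269 and 0.0131 by limma). The WT values of the latter set were not shown to be above background. The call of the brightest set was lost without WT 1, 2 or 3 (adjusted p = 0.0585, 0.107 and 0.092) and without Cav-3KO 2 or 3 (0.0549 and 0.115), with differences between −1.08 and −0.75. It held without Cav-3KO 1 (−1.22, adjusted p = 0.014).

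Scd1, the main stearoyl-CoA desaturase of adipose tissue and liver, read 13.81, 13.66 and 14.02 in WT and 13.92, 13.56 and 13.62 in Cav-3KO. These groups overlapped, and the difference of −0.13 ± 0.13 (SE, 95% interval −0.44 to 0.18) did not pass (adjusted p = 0.605 by limma). The Scd1 mean of 13.76 was close to the highest mean of any probe set, 13.97, where array signals can level off. A dimmer Scd1 probe set read 9.86, 9.95 and 10.77 in WT and 10.20, 9.20 and 9.33 in Cav-3KO, a difference of −0.62 with a 95% interval from −1.34 to 0.11 (adjusted p = 0.252 by limma). Within each array, Scd2 minus Scd1 was −1.93, −1.26 and −1.99 in WT and −2.29, −2.87 and −2.54 in Cav-3KO. The difference of change was −0.84, without overlap between the groups (exact permutation p = 0.1, the smallest possible, and 0.16 adjusted over 8 such pairs of genes). Against the dimmer Scd1 set, a comparison chosen after the data were seen, it was −0.35 with overlapping groups (exact permutation p = 0.4), so a different change of Scd2 and Scd1 was not shown.

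Of the Fads genes, neighbours on chromosome 19, only Fads2 passed the test. Fads2, the desaturase that opens polyunsaturated fatty acid synthesis, read 8.41, 8.22 and 8.38 in WT 1 to 3 and 9.90, 10.06 and 9.83 in Cav-3KO 1 to 3. Each Cav-3KO array was well above each WT array, and the arrays within a group lay close together. Fads2 rose by 1.59 ± 0.10 (SE), from 8.34 ± 0.10 (SD, n = 3) to 9.93 ± 0.11, with adjusted p = 0.000521 by limma. Its other probe sets rose by 1.16 ± 0.22 and 1.26 ± 0.20 (adjusted p = 0.0161 and 0.00926 by limma). The rise ranked 15 by p-value among 18193 genes and 194 from the top by size, and its call held in each of the 17 alternative settings.

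Fads1, which acts after Fads2 in the same route, read 10.74, 10.73 and 10.95 in WT and 11.00, 11.25 and 11.08 in Cav-3KO. The groups were separate by a narrow margin, and the difference of 0.30 ± 0.11 (SE, 95% interval 0.06 to 0.55) did not pass (adjusted p = 0.106 by limma). A second Fads1 probe set gave 0.02 ± 0.15 with overlapping groups. Fads3, a relative that acts in sphingolipid metabolism, read 9.99, 10.52 and 11.09 in WT and 10.30, 10.06 and 10.09 in Cav-3KO. The WT arrays of Fads3 spread widely, with WT 1 below all Cav-3KO arrays and WT 3 above them, and the difference was −0.38 (95% interval −0.95 to 0.19, adjusted p = 0.374 by limma). Its other probe sets gave −0.49 and −0.43, also with overlapping groups, and without WT 3 the difference was −0.10.

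Within arrays, Fads2 minus Fads1 was −2.32, −2.51 and −2.57 in WT and −1.10, −1.19 and −1.25 in Cav-3KO, a difference of change of 1.29. Against Fads3 the difference of change of Fads2 was 1.97. Both had groups that did not overlap, at the smallest exact permutation p, 0.1 (0.16 adjusted over the 8 pairs). Fads3 against Fads1 changed by −0.69 with overlapping groups (exact permutation p = 0.2). These are differences of change within an array and do not compare levels of different genes.

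Among the elongases of the 10 genes, Elovl3 had the largest measured difference. Elovl3, which makes saturated and monounsaturated very-long-chain fatty acids and is known from cold-exposed brown fat and from sebaceous glands, read 8.72, 8.95 and 9.55 in WT 1 to 3 and 5.62, 5.56 and 5.77 in Cav-3KO 1 to 3. The highest Cav-3KO array was far below the lowest WT array. Elovl3 fell by 3.42 ± 0.20 (SE), from 9.07 ± 0.43 (SD, n = 3) to 5.65 ± 0.11, with adjusted p = 0.000402 by limma. The Cav-3KO mean lay within the 2.30 to 6.16 spanned by the means of 6 Y-linked genes, which stand for background on these female arrays, although 5 of the 6 were at 4.44 or below. The size of the fall, here and against other genes, is therefore a lower bound. As measured it ranked 2 from the lowest difference among all genes and 9 by p-value, and it rests on 1 probe set. The call held in each of the 17 alternatives, with differences from −3.60 to −3.18 over those settings.

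Elovl3 had a difference below 0, as did all 8 measured brown adipocyte markers. The same held for all 8 epidermal and sebaceous, all 7 white adipocyte and all 7 lymphocyte markers measured. Of the brown adipocyte markers only some passed the test. The mean of 8 measured markers was 7.18, 6.77 and 8.29 in WT 1 to 3 and 6.24, 6.24 and 6.20 in Cav-3KO 1 to 3, with 2 of 8 lower (Ucp1 and Cox8b) and 0 higher by limma (5 lower and 0 higher at an unadjusted p under 0.05). Otop1 (−1.66) and Cox7a1 (−1.38) did not pass, though all their Cav-3KO values lay below all WT values. Dio2 (−0.06), Zic1 (−0.08), Slc27a2 (−0.78) and Cidea (−1.12) had overlapping groups. Ucp1, the uncoupling protein, read 10.35, 8.54 and 12.72 in WT and 7.56, 6.94 and 7.04 in Cav-3KO, with adjusted p = 0.0453 by limma. That call was lost without WT 1 or any Cav-3KO array (up to 0.136). It was also lost with an intensity-dependent robust prior (0.154) and in the fit to gene means over probe sets (0.0506). WT 3 was the highest array for Elovl3, for Ucp1 and for the mean of the markers. WT 2 had the lowest Ucp1 of the WT arrays and a higher Elovl3 value than WT 1. Without WT 3 the fall of Elovl3 was 3.18. Zic1, a marker of classical brown fat, had a mean of 2.05, below the lowest mean among the Y-linked genes, 2.30. Epidermal and sebaceous markers were low, with list means of 4.79 to 4.96 in WT and 4.61 to 4.67 in Cav-3KO. By limma 1 of 8, Krt79, was lower. The part of these cells in the fall of Elovl3 was not tested.

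Elovl6, which extends palmitate to stearate, read 12.38, 13.23 and 12.89 in WT and 12.25, 11.02 and 11.89 in Cav-3KO. The groups did not overlap, yet WT 1 and Cav-3KO 1 were close and Cav-3KO 2 was the lowest array, as for Scd2. The difference of −1.11 ± 0.33 (SE, 95% interval −1.87 to −0.36) did not pass (adjusted p = 0.0639 by limma). A second set gave −1.36 ± 0.39 (adjusted p = 0.0614), and the dimmest set, with Cav-3KO values below the highest Y-linked mean, passed at −1.21 ± 0.28 (adjusted p = 0.0299 by limma). With all sets averaged Elovl6 passed (−1.23, adjusted p = 0.0443), as it did without Cav-3KO 1 (−1.38, 0.0427) and without dim probe sets (0.0479). Elovl3 against Elovl6 changed by −2.31 within arrays, without overlap (exact permutation p = 0.1, the smallest possible, and 0.16 adjusted over the 8 pairs).

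Elovl1 and Elovl5 had differences of opposite sign that did not pass. Elovl1, which makes very-long-chain saturated fatty acids for sphingolipids, read 10.06, 10.13 and 9.82 in WT and 10.18, 11.23 and 10.69 in Cav-3KO. Cav-3KO 2 stood highest and Cav-3KO 1 only just above WT 2, and the difference of 0.70 ± 0.24 (SE, 95% interval 0.14 to 1.25) did not pass (adjusted p = 0.102 by limma). All 4 Elovl1 probe sets had separate groups with higher Cav-3KO values, from 0.53 to 0.70, and 1 of them passed (0.61, adjusted p = 0.0486). Without Cav-3KO 1 the brightest set passed (0.96, adjusted p = 0.0244), and without Cav-3KO 2 its difference was 0.43. Against Elovl1, Elovl3 changed by −4.12 within arrays, without overlap (exact permutation p = 0.1, the smallest possible, and 0.16 adjusted over the 8 pairs).

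Elovl5, which lengthens the polyunsaturated products of FADS2, read 11.91, 11.84 and 11.94 in WT and 11.54, 11.88 and 11.29 in Cav-3KO. Cav-3KO 2 lay within the narrow WT range and the other 2 Cav-3KO arrays below it, and the difference of −0.33 ± 0.15 (SE, 95% interval −0.67 to 0.01) did not pass (adjusted p = 0.195 by limma). Without Cav-3KO 2 it passed, at −0.49 (adjusted p = 0.031). The second Elovl5 set gave −0.36 ± 0.12 with separate groups (adjusted p = 0.0872). Elovl5 against Elovl6 changed by 0.78 within arrays, with overlap (exact permutation p = 0.3).

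Elovl4, which makes the extremely long chains of retina, skin and brain, read 2.92, 2.84 and 2.92 in WT and 3.72, 3.15 and 3.35 in Cav-3KO. Its mean of 3.15 lay within the 2.30 to 6.16 spanned by the means of the Y-linked genes, so this is a signal at the level of background. The difference of 0.51 ± 0.14 (SE) missed the threshold (adjusted p = 0.0553 by limma) and passed without Cav-3KO 2 (0.64, 0.02), with array weights (0.0284) and with an intensity-dependent prior (0.0419). The other Elovl4 probe set had overlapping groups and a difference of 0.18 ± 0.17. Elovl4 against Elovl1 changed by −0.19 within arrays, and by 0.21 without Cav-3KO 2.

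**Figure D3:**
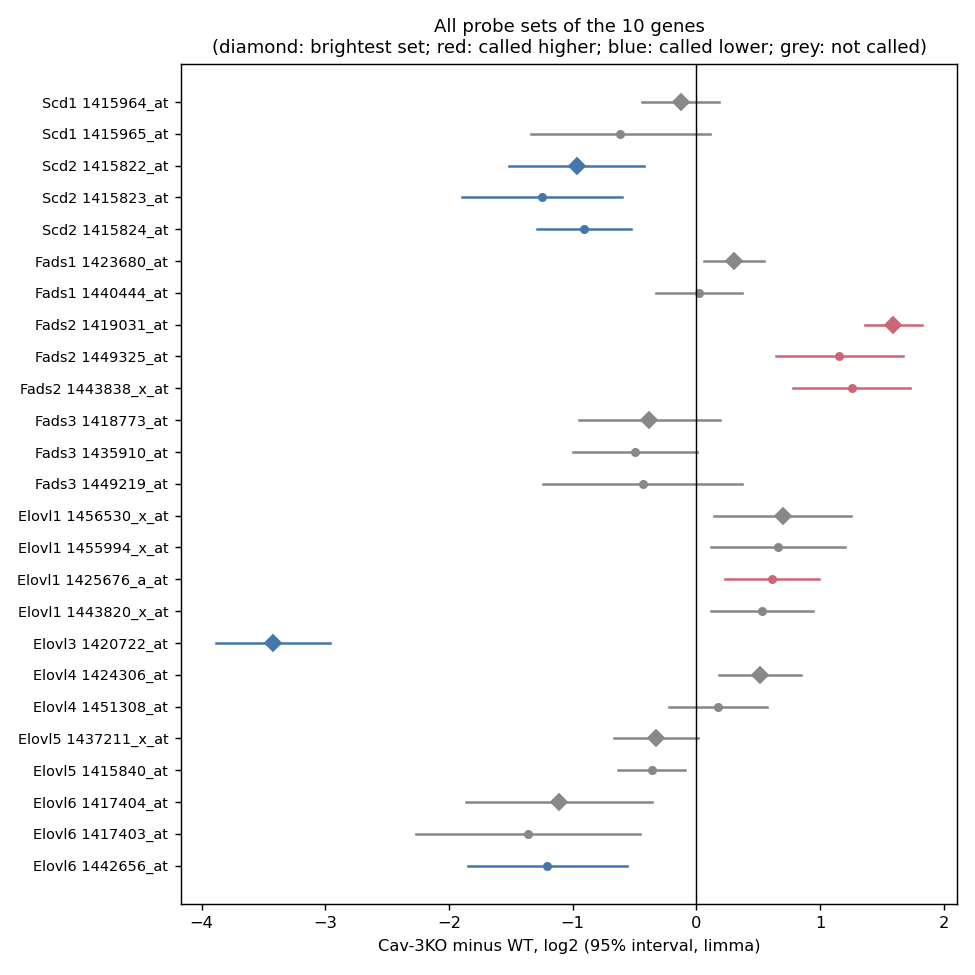
Cav-3KO minus WT difference (x axis, log2) with its 95% interval for all 25 probe sets, with diamonds for the brightest set of each gene and circles for the others. Red sets were called higher, blue sets lower and grey sets not called. All 15 further sets had the same sign as the brightest set of their gene, and 4 of them shared its call, those of Scd2 and Fads2.

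**Figure D4:**
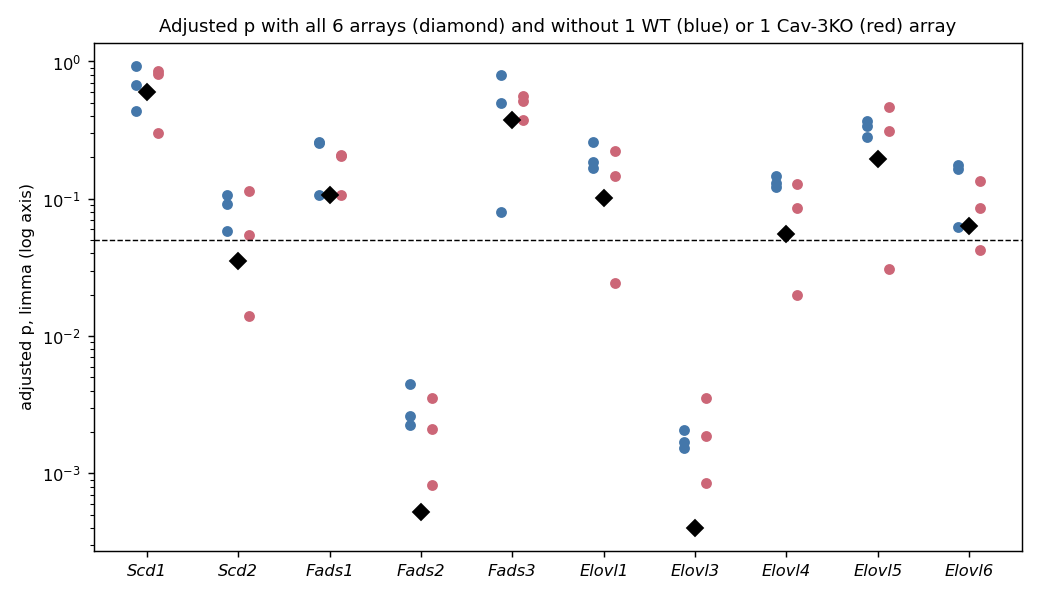
Adjusted p by limma (log axis) for each gene with all 6 arrays (diamond) and without each WT (blue) or Cav-3KO (red) array in turn, with a dashed line at 0.05. Elovl3 and Fads2 stayed below the line in all 6 cases (highest 0.00352 and 0.00446), while Scd2 did so in 1 of 6, and Elovl1, Elovl4, Elovl5 and Elovl6 crossed it in 1 of 6.

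The genes most like each changed gene were found by the root mean square difference over the 6 arrays after each gene's own mean was removed. For Fads2 these were Spint2 (0.07 log2 units), Stap2 (0.10) and Ceacam1 (0.10). Spint2, a protease inhibitor, is also in the luminal epithelium list, and rose by 1.49 ± 0.09 (SE, adjusted p = 0.00048 by limma). Genes picked this way from the same values must change much as the gene they were picked for. Their changes are therefore no separate evidence. For Scd2 they were Gadd45a (0.10), Acoxl (0.10) and Mpc1, a subunit of the mitochondrial pyruvate carrier (0.11). For Elovl3 they were Fgb (0.26), Fam25c (0.63) and Poln (0.66), so that no gene other than Fgb came as near to Elovl3.

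Close relatives of the 10 genes were measured for 6 of 7 listed genes, of which 1 was higher and 1 lower by limma. Over all genes 7.65% were higher and 8.51% lower, the shares to set beside the counts of each list. Elovl7, an elongase of saturated and polyunsaturated chains, rose by 0.67 ± 0.15 (SE, adjusted p = 0.0281), but not without WT 2 or 3 or Cav-3KO 1 or 3 (0.0884, 0.093, 0.0587 and 0.0846) or with its probe sets averaged (0.31, 0.123). Degs1, the dihydroceramide desaturase, fell by 0.43 ± 0.10 (adjusted p = 0.0342) and lost its call without any WT array and without Cav-3KO 1 or 3 (up to 0.115). Scd3 (0.05 ± 0.11) and Elovl2 (−0.10 ± 0.09), which makes precursors of docosahexaenoic acid, did not pass.

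Enzymes that complete an elongation round and carry electrons to the desaturases were lower in 4 of 12 and higher in 0 (5 lower and 1 higher at an unadjusted p under 0.05), with a median of −0.19. Hsd17b12, the ketoacyl reductase of elongation, fell by 0.67 ± 0.10 (SE, adjusted p = 0.00659 by limma) and Hacd2, a dehydratase of the same cycle, by 0.81 ± 0.14 (0.0104). Cyb5a and Cyb5b, cytochromes b5 that donate electrons, fell by 0.67 ± 0.11 and 0.83 ± 0.15 (0.0092 and 0.0137), and Cyb5b lost its call without Cav-3KO 3 (0.0576). Tecr, the last enzyme of the cycle, gave −0.50 ± 0.19 (adjusted p = 0.132).

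Genes that supply and activate fatty acids were lower in 9 of 14 measured and higher in 2, with a median of −0.69. Acacb, which makes the malonyl-CoA that restrains fatty acid oxidation, fell by 1.11 ± 0.15 (SE, adjusted p = 0.00507 by limma), and Thrsp, a lipogenic regulator, by 0.66 ± 0.10 (0.00613). Acly, Acaca and Fasn, the core enzymes of synthesis, fell by 0.71 ± 0.18, 0.85 ± 0.18 and 0.54 ± 0.14 (0.0398, 0.0214 and 0.0398). Each of these 3 lost its call without WT 2 or 3 or Cav-3KO 3, and Acly and Fasn also without WT 1 or Cav-3KO 2 (adjusted p = 0.0516 to 0.118 over these cases). Acsl4, an acyl-CoA synthetase that prefers arachidonic acid, rose by 1.06 ± 0.15 (0.00535). Olah, the thioesterase that ends synthesis at medium chains in the lactating gland, read 3.66, 5.89 and 3.29 in WT and 7.72, 10.34 and 9.08 in Cav-3KO, a rise of 4.77 ± 0.80 (0.0103, and below 0.05 whichever array was left out, but lost with an intensity-dependent prior). All 3 WT values of Olah lay below 6.16, the highest Y-linked mean, and those of WT 1 and 3 below the next, 4.44. The size of its rise is therefore a lower bound. The count of lower genes was 5, 3 and 3 without WT 1, 2 or 3 and 2 without Cav-3KO 3. In all 9 lower genes WT 2 was the highest array, and in 8 of them Cav-3KO 2 was the lowest, the same arrays as for Scd2 and Elovl6.

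Of the regulators, 5 of 16 measured were lower and 1 higher, with a median of −0.31. Ppargc1a, which coactivates mitochondrial genes, fell by 1.71 ± 0.17 (SE, adjusted p = 0.00165 by limma), Mlxipl, the glucose-responsive factor ChREBP, by 1.60 ± 0.20 (0.00402), Pparg, the adipocyte master regulator, by 1.11 ± 0.13 (0.0028) and Nr1h3, liver X receptor alpha, by 0.95 ± 0.12 (0.00466). Each of these 4 calls held in all 17 alternatives. Srebf1 and Srebf2, which encode the SREBP factors, gave −0.30 (95% interval −0.72 to 0.13) and 0.21 (−0.04 to 0.46) and did not pass. The remaining calls, named after their values were seen, were Insig1, which retains SREBP in the endoplasmic reticulum and fell by 1.12 ± 0.21 (0.0143, and 0.0603 without Cav-3KO 3), and Scap, its escort, which rose by 0.45 ± 0.11 (0.0369). Scap lost its call without WT 2 or 3 or Cav-3KO 2 or 3 (0.065 to 0.122).

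Genes that use polyunsaturated fatty acids were lower in 5 of 15 measured and higher in 0 (7 lower and 2 higher at an unadjusted p under 0.05), with a median of −0.26. Agpat3, an acyltransferase of phospholipid synthesis, fell by 0.82 ± 0.10 (SE, adjusted p = 0.00409 by limma) and Scp2, a peroxisomal thiolase and lipid carrier, by 0.52 ± 0.08 (0.00794). The leukotriene enzymes Alox5 and Ltc4s fell by 0.69 ± 0.12 and 1.21 ± 0.26 (0.01 and 0.0242), and Ltc4s lost its call without any WT array or Cav-3KO 3 (0.0501 to 0.0828). The Cav-3KO mean of Ltc4s, 5.88, lay below the highest Y-linked mean (Sry, 6.16) but above the next, 4.44. It was thus not shown to be above background, and the fall of Ltc4s is read as a lower bound. Lymphocyte markers were lower in 5 of 7 and higher in 0 by limma (7 lower and 0 higher at an unadjusted p under 0.05), with list means of 7.84 to 8.19 in WT and 7.20 to 7.44 in Cav-3KO. Among macrophage markers 1 of 6 was lower (Mrc1, −0.55) and 1 higher (Cd14, 1.41), with list means of 9.95 to 10.16 in WT and 9.99 to 10.24 in Cav-3KO. The part of immune cells in the fall of Alox5 and Ltc4s was not tested. The count of lower genes was 3 without WT 2, WT 3 or Cav-3KO 3. Among 8 measured genes of very-long-chain ceramide synthesis 1 was lower, the ceramide synthase Cers4 (−0.53 ± 0.10, adjusted p = 0.015, and 0.0516 to 0.0562 without WT 2 or 3 or Cav-3KO 3). Another was higher, the serine palmitoyltransferase subunit Sptlc2 (0.30 ± 0.08, adjusted p = 0.0471), which passed in no fit with 1 array left out (0.0682 to 0.137).

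Markers of fat and of epithelium also differed between the groups, beside those of lymphocytes, whose list mean differed by −0.62. White adipocyte markers were lower in 4 of 7 and higher in 0 by limma (7 lower and 0 higher at an unadjusted p under 0.05), with list means of 11.98 to 12.20 in WT and 11.35 to 11.69 in Cav-3KO. The mean of that list was lower by 0.60 in Cav-3KO. Luminal markers were higher in 8 of 11 and lower in 1, with list means of 9.27 to 9.73 in WT and 10.43 to 10.65 in Cav-3KO, and the keratin gene Krt8 was among those that rose (0.86 ± 0.18). Basal markers were higher in 7 of 8 and lower in 0 (7 and 0 at an unadjusted p under 0.05), with list means of 8.84 to 8.99 in WT and 9.67 to 9.86 in Cav-3KO. Adipoq and Krt8, which define fat and luminal epithelium, had means of 12.91 and 12.19, so neither was at background. Fads2 rose by 1.59, and the Elovl3 difference was −3.42. The mean of the luminal list changed by 1.08, with single markers from −0.55 (Esr1) to 2.31 (Elf5). That of the brown adipocyte list changed by −1.19, with single markers from −0.06 (Dio2) to −3.36 (Ucp1). The part of cell type proportions in these results was not tested.

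**Figure D5:**
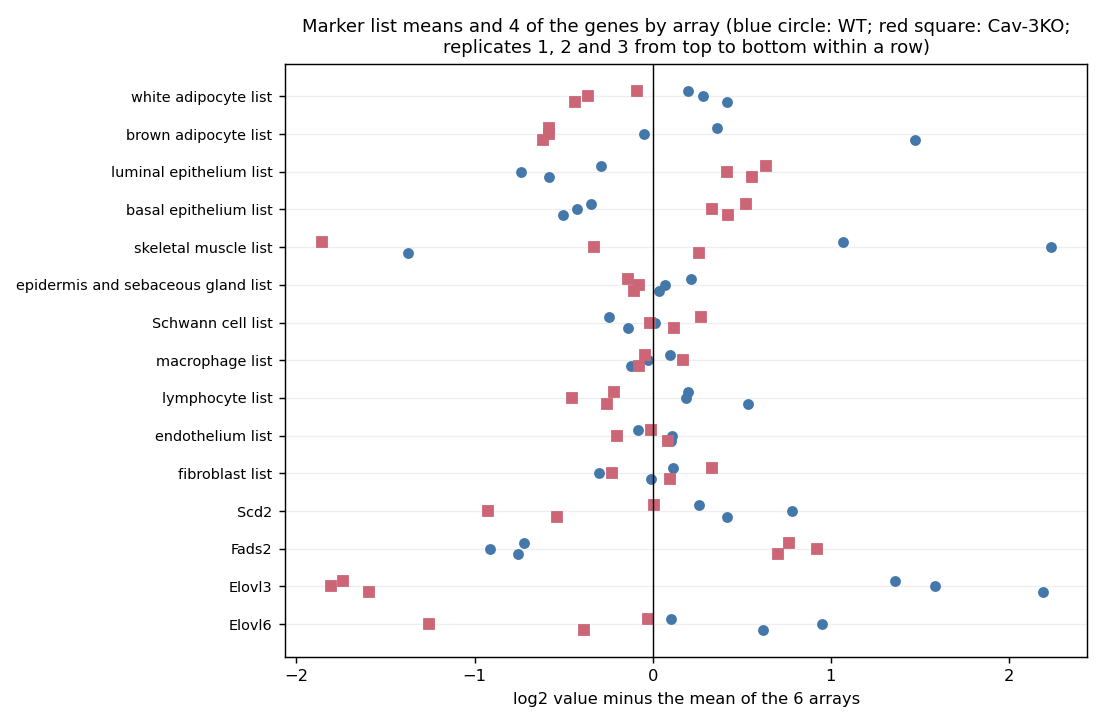
Mean of each marker list and values of Scd2, Fads2, Elovl3 and Elovl6 in each array, as log2 value minus the mean over the 6 arrays (x axis), with blue circles for WT and red squares for Cav-3KO. The white and brown adipocyte, lymphocyte, and epidermis and sebaceous gland lists lie on the same side as Scd2, Elovl3 and Elovl6. The luminal and basal lists lie on the same side as Fads2. In the remaining lists the groups overlap, and the skeletal muscle list spreads over both groups.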

How the data were processed

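Total RNA of 6 mammary glands was labelled with biotin and read on 1 single-channel Affymetrix array each, per the labels' protocols. The deposited log2 expression values per probe set come from RMA, which the submitters' processing notes name without a version. RMA quantile normalizes the arrays, so a shift shared by most transcripts would be removed, and it compresses folds of dim sets. Array signals of very bright sets can level off, which also compresses folds. Groups and replicate numbers came from the sample titles.

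Of 45101 probe sets, 64 controls were left out and 45037 tested without a filter. Sets with 1 symbol in the platform annotation (34945) were named, with symbols updated through Entrez identifiers in RefSeq (GRCm38.p6; 204 had no match), while 932 with several symbols and 9160 not listed stayed unnamed. A gene is shown by its set with the highest mean. Genotype was tested with limma 3.58.1 in R 4.3.3 (lmFit, eBayes, two-sided, 4 residual degrees of freedom), a script tested on simulated data, with Benjamini-Hochberg adjustment over all tested sets and a threshold of 0.05. Pairs of genes were compared by exact permutation tests over samples. The genes and lists were chosen with earlier results of these data known. All 10 genes were named; in each list the 4 with the smallest p among those that passed, plus Srebf1, Srebf2, Mlxipl, Pparg, Fasn, Acly, Acaca and Olah; and for each changed gene the 3 most similar. Scd3, Elovl2, Tecr and marker genes were named after their values were seen. Alternatives were other normalizations, a filter on dim sets, another prior, array weights, each array left out, the replicate block, other probe set choices and other thresholds. Figures used matplotlib 3.10.9.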

Additional observations from a re-analysis of the deposited data

How the results depend on the processing

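The calls of Fads2 and Elovl3 held in each of 17 alternatives, and no difference of the 10 genes changed sign in any. With 1 array left out, the number of the 10 genes called was 2 to 5 (3 with all arrays, 5 without Cav-3KO 1), the number higher 1 to 2 and the number lower 1 to 3, and the number of all genes called 1235 to 3181 (2941 with all arrays; 1815, 1680 and 1470 without WT 1, 2 or 3 and 1235 without Cav-3KO 3). At thresholds of 0.01 and 0.1, 867 and 4466 genes were called. At 0.1, 5 of the 10 genes were called. The number higher was 2, where the full fit gave 1, with an intensity-dependent robust prior, with array weights, with the replicate block, without sets ending in _x_at or _s_at, and at 0.1. The number lower was 1, where the full fit gave 2, with the replicate block and at 0.01. It was 3 without dim probe sets, with all sets of a gene averaged and at 0.1.

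With the replicate number as a block, Scd2 gave adjusted p = 0.0586 and Elovl4 0.0465, and 2870 genes were called. The numbers were not taken as pairs, since same-numbered arrays deviated from their group means with correlations of −0.05, 0.19 and −0.02. The within-array change of Elovl4 against Elovl1 was −0.19 with all arrays, ran from −0.60 to 0.21 with 1 array left out, and reversed to 0.21 without Cav-3KO 2. That of Scd2 against Scd1 was −0.84, and −0.35 with the dimmer Scd1 set, an alternative chosen after seeing the data. Signals near background, as for Elovl4 and for Elovl3 in Cav-3KO, and near the top of the range, as for Scd1, limit what can be seen.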
